A study of Mus musculus with 6 samples.

Results

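Glycosaminoglycans are long sugar chains, most of them carried on the core proteins of proteoglycans, and the genes described here encode the enzymes that build, sulfate, edit or cut them. They were chosen by name, as 48 mouse gene symbols, and each was found in the table of read counts through its Ensembl identifier. All 48 had a row among the 38293 genes of the table, and 43 of them passed the filter on low counts and are among the 16966 genes tested. By role they comprise 6 enzymes of the linker that joins a chain to its core protein, 6 that polymerise chondroitin and 10 that sulfate or epimerise chondroitin and dermatan sulfate. A further 5 polymerise heparan sulfate, 12 modify it and 3 edit or cut it after synthesis. The remaining genes are 4 of hyaluronan synthesis and breakdown and 2 that make the sulfate donor.

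RNA was measured by bulk RNA-seq in 6 libraries of live tdTomato+ cells, sorted from whole spinal cords of female mice. The Control and EAE groups had 3 libraries each. EAE, experimental autoimmune encephalomyelitis, is an induced disease in which immune cells attack myelin. Animals of both groups had the genotype NG2-CreERTM:Rosa-tdTomato/+:Cx3cr1GFP/+: an inducible Cre under the NG2 (Cspg4) promoter, a red reporter that Cre switches on for good, and green fluorescent protein in 1 allele of Cx3cr1. The NG2 promoter is active in oligodendrocyte precursor cells and also in pericytes and vascular smooth muscle, and a labelled precursor stays red after it becomes an oligodendrocyte, so the sorted population holds several cell types. The labels state neither age, time after induction, nor whether a library came from 1 animal, and p-values therefore measure only the spread between these libraries, which may be technical.

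As background, chondroitin and heparan sulfate start from the same linker sugars, and the next sugar added decides which chain is made. Sulfotransferases then place sulfate at set positions, using the donor PAPS, and the pattern of sulfate governs which growth factors and receptors a chain binds. Hyaluronan differs from both: it is made at the plasma membrane, has no core protein and carries no sulfate. In demyelinated lesions of the central nervous system, chondroitin sulfate proteoglycans and hyaluronan accumulate and are known to restrain the maturation of oligodendrocyte precursors.

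The promoters of called members with an entry in the RefSeq table (GRCm38.p6) are shown because these are the genes whose RNA differed between the groups. Each run is the 250 bases before the annotated start, on the strand of the gene, 5′ to 3′, and all 3 genes lie on the minus strand. Capitals mark a GC box, GGGCGG or its reverse complement CCGCCC.
Ust, chr10:8518826-8519075: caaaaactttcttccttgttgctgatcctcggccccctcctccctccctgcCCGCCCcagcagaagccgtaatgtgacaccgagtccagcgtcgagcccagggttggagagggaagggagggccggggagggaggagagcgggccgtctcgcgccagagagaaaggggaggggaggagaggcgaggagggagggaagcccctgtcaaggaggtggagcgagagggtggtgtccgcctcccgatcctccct
Chst15, chr7:132317229-132317478: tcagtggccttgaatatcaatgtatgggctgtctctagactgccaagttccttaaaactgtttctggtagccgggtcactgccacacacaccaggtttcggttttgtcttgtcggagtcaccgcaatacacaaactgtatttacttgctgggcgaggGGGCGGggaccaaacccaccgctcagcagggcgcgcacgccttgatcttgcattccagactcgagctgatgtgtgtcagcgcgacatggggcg
Extl1, chr4:134372548-134372797: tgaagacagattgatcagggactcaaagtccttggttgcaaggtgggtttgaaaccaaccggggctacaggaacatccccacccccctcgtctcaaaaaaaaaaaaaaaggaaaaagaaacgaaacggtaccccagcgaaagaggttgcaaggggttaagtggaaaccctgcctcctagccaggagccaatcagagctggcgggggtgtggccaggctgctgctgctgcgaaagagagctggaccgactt
Ust and Chst15 each hold 1 GC box in this window, and Extl1 holds none. Over both strands, 32.7% of the 32851 promoters in the table hold a GC box, 12.4% the TATA box letters TATAAA and 6.02% the E box letters CACGTG; neither of the latter is in the 3 windows shown. GC content is 66.4% in Ust, 54.8% in Chst15 and 53.2% in Extl1, against a median of 52.4% over all promoters, and CpG pairs number 15, 14 and 8, against a median of 6. Of the 48 members 38 had an entry. Has2, the called member with the largest rise, had none. The Extl1 window lies inside the longer interval that GENCODE gives for that gene.

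The libraries held 22141522 to 28734798 counted reads, and 3 reads, the level that a count of 0 allows, correspond to 0.0996 to 0.139 CPM (counts scaled to library size with TMM factors). On principal components of log2 CPM, EAE 3 lay at 100.2 on the first axis, with EAE 1 and EAE 2 at 44.1 and 38.3, and Control 3 stood apart from the other Control libraries on the second. EAE 3 was the highest EAE library for 22 of the 43 tested members (51.2%) and for 39.9% of all tested genes. Markers of several cell types differed between the groups. All 12 pericyte and smooth muscle markers were lower in EAE, with a summed level of 3527 to 6180 CPM in Control and 560 to 936 CPM in EAE, as were all 10 endothelial markers (1432 to 2414 against 324 to 415 CPM) and 3 of 6 tested fibroblast markers (52.8 to 97.9 against 19.7 to 33.1 CPM). New oligodendrocyte markers were higher, 7 of 8 (848 to 1045 against 1897 to 2390 CPM), and precursor markers were higher in 2 of 9 tested (2610 to 3771 against 3874 to 4513 CPM). The precursor list was mixed, with 5 log2 fold changes above 0 and 4 below. Cspg4, the gene of NG2, had 355, 374 and 347 CPM in Control and 168, 160 and 290 CPM in EAE. It was not called (adjusted p 0.0764, edgeR). Of 9 tested myeloid markers 3 were higher and 1 lower, and their sum ran from 40.7 to 53.5 CPM in Control and from 25.7 to 321 CPM in EAE. The myelin list had 0 of 8 called by edgeR (1 at an unadjusted p under 0.05 and 1 by DESeq2), the astrocyte list 1 of 7, higher, and the neuronal list 1 of 4 tested, higher. Lymphocyte markers were too low to test: Cd3e, Cd3d, Cd4 and Ms4a1 were at 0 reads in every Control library. Their list summed to 0 to 0.878 CPM in Control and to 0.0372 to 12.2 CPM in EAE. The part of these marker differences in the enzyme results below was not tested. In bulk samples, fewer cells of a type and less RNA per cell cannot be told apart.

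Of the 43 tested enzymes, 4 differed between EAE and Control. Has2, a hyaluronan synthase, rose 6.18-fold, and Ust, which adds sulfate to the uronic acid of chondroitin and dermatan sulfate, rose 1.74-fold. Chst15, which makes disulfated chondroitin units, fell 2.21-fold, and Extl1, a heparan-related glycosyltransferase of low level, fell 10.0-fold. The 2 higher members are 4.65% of those tested, beside 2.82% of all tested genes called higher in EAE, and the 2 lower members are also 4.65%, beside 4.33% of all tested genes called lower. The shares called were thus near those of all genes. Group ranges of CPM did not overlap for 6 members higher in EAE (14%) and 4 lower (9.30%), and for all tested genes the shares were 13.4% higher and 13.4% lower. The median log2 fold change was 0.03 for the members and 0.004 for all tested genes. In size it was under 0.5 for 25 members (58.1%), and the members divided into 22 above 0 and 21 below. An unadjusted p under 0.05 was found for 10 of the 43. The matching share of all tested genes was not computed, so this count cannot be read as an excess.

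**Figure D1:**
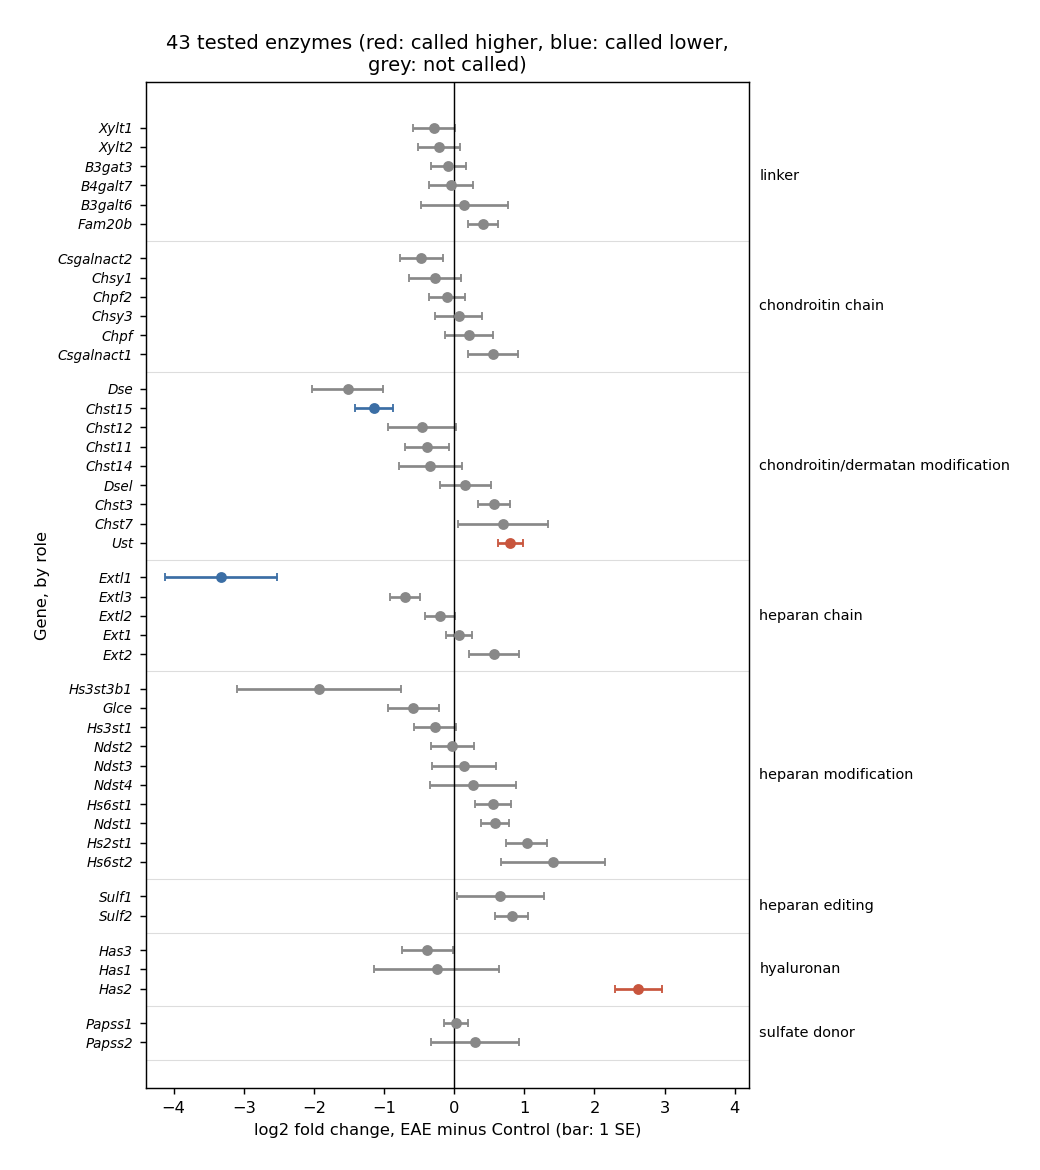
Log2 fold change of EAE over Control for the 43 tested enzymes, grouped by role, with error bars of 1 SE from the edgeR fit. Has2 at 2.63 and Ust at 0.80 were called higher, Chst15 at -1.14 and Extl1 at -3.33 were called lower, and 25 of the 43 lie within 0.5 of 0.

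Levels between enzymes are compared as CPM per kilobase of the deposited gene length, averaged over the 6 libraries. Sulf2, an extracellular sulfatase of heparan sulfate, led at 148. Papss1 followed at 51.3, then the heparan enzymes Ndst1 at 46.7, Hs3st1 at 39.1, Ext2 at 31.9 and Extl3 at 27.7. By this mean, the highest enzyme of chondroitin sulfation was Ust, in the seventh place at 16.0, just above Hs2st1 at 15.6. In their ranges over libraries, Ust (10.4 to 23.8) and Hs2st1 (7.76 to 31.3) overlapped, as did Papss1 (42.1 to 59.2) and Ndst1 (34.4 to 73.3). The order of some enzymes differed between the group means, a description with no test. Extl3 lay above Ext2 in Control (means of 34.4 and 25.7 per kilobase) and below it in EAE (21.1 and 38.1). Chst11 lay above Ust in Control (13.1 and 11.6) and below it in EAE (10.00 and 20.3), and Hs3st1 lay above Ndst1 in Control (42.9 and 37.4) and below it in EAE (35.4 and 56.0). Single libraries went against each of these orders of means. Control 2 had Ext2 at 37.3 and Extl3 at 37.1, and EAE 2 had Extl3 at 27.0 and Ext2 at 24.5. Control 1 had Ust at 10.4 and Chst11 at 7.12. Control 3 had Ndst1 at 41.2 and Hs3st1 at 40.9, and EAE 2 had Hs3st1 at 54.3 and Ndst1 at 48.4. Sulf2 alone, with 95.8 as its lowest value, lay above every library of the next enzymes.

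The linker enzymes gave no call among 6 in edgeR, DESeq2 or limma-voom, and 0 of them had an unadjusted p under 0.05. Xylt1, a xylosyltransferase that starts the linker on the core protein, was the highest of them per kilobase, with 35.6, 62.0 and 84.3 CPM in Control 1, 2 and 3 and 38.6, 50.5 and 59.5 CPM in EAE 1, 2 and 3. The EAE values lay inside the Control range. Its log2 fold change was -0.29 ± 0.30 (SE), with an adjusted p of 0.671 (edgeR quasi-likelihood test, Benjamini-Hochberg). Xylt1 made up 83.3% to 91.7% of the summed per-kilobase level of the xylosyltransferase pair in every library, and Xylt2 the rest. B4galt7, B3galt6 and B3gat3, which add the galactoses and the glucuronic acid, had log2 fold changes of -0.05, 0.15 and -0.08. Fam20b, the kinase that phosphorylates the xylose, had 25.1 ± 4.94 CPM (SD, n = 3) in Control and 33.3 ± 3.80 CPM in EAE, with an adjusted p of 0.330. All values after ± on a CPM or percent scale are SD over 3 libraries, and those after ± on the log2 scale are SE.

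Chondroitin polymerisation gave no call either by these tools, with 0 of 6 enzymes at an unadjusted p under 0.05 and a median log2 fold change of -0.02. Csgalnact1, which adds the first N-acetylgalactosamine and so commits a chain to chondroitin, had 11.9, 19.3 and 8.46 CPM in Control and 19.7, 25.7 and 13.0 CPM in EAE. Control 2 lay within the EAE range, and the log2 fold change was 0.56 ± 0.36 with an adjusted p of 0.456. It made up 48.3% ± 17.3 of the pair's per-kilobase level in Control and 64.9% ± 12.8 in EAE, with overlapping ranges, and its partner Csgalnact2 had 15.8 ± 4.79 and 11.4 ± 2.68 CPM. The chain-extending enzymes Chsy1, Chsy3, Chpf and Chpf2 had log2 fold changes of -0.28, 0.06, 0.21 and -0.10. Of these, Chpf2 is uncertain, since 44.1% of its exonic bases lie in other genes, among them Smarcd3 on the opposite strand, and the strand setting of the counting is not known.

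Among the enzymes that modify chondroitin and dermatan sulfate, 9 of 10 were tested, 1 rose and 1 fell. Ust (ENSMUSG00000047712, GRCm38 chr10:8204756-8518825), the uronyl 2-O-sulfotransferase, had 44.7, 54.1 and 50.9 CPM in Control and 88.8, 102 and 70.1 CPM in EAE. All EAE libraries lay above all Control libraries, with EAE 3 the nearest to them. The means were 49.9 ± 4.80 and 87.0 ± 16.0 CPM, and the log2 fold change was 0.80 ± 0.18 with an adjusted p of 0.0296 (edgeR). The call was lost without Control 1, 2 or 3 (adjusted p 0.13, 0.0850 and 0.0744) and without EAE 1 or 2 (0.0930 and 0.0826), and was kept without EAE 3 (0.00920).

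Chst15 (ENSMUSG00000030930, chr7:132235780-132317228) adds a second sulfate, at carbon 6, to N-acetylgalactosamine already sulfated at carbon 4, which gives the chondroitin sulfate E unit. It had 24.8, 22 and 17.9 CPM in Control and 10.3, 7.14 and 11.8 CPM in EAE. Every EAE library lay below every Control library. The means were 21.6 ± 3.47 and 9.74 ± 2.37 CPM, and the log2 fold change was -1.14 ± 0.27 with an adjusted p of 0.0350 (edgeR). The call was lost without Control 1 or 2 (0.138 and 0.111), without EAE 1 or 2 (0.119 and 0.0870) and with library sizes alone as scaling (0.0656).

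Dse and Dsel are the epimerases that turn glucuronic into iduronic acid and so make dermatan sulfate. Dse had 8.33, 8.32 and 4.02 CPM in Control and 1.73, 1.53 and 3.95 CPM in EAE. The groups did not overlap, but Control 3 and EAE 3 all but met. The log2 fold change of Dse was -1.52 ± 0.51 with an adjusted p of 0.123 (edgeR). With 1 library left out, that adjusted p ranged from 0.0437, without EAE 3, to 0.348. Dsel had 8.16 ± 3.11 and 9.12 ± 1.64 CPM, with a log2 fold change of 0.16 ± 0.36. As a share of the per-kilobase level of the pair, Dse made up 53.6% ± 2.19 in Control and 26.2% ± 14.1 in EAE, with ranges that did not overlap, a description with no test.

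Chst3 and Chst7 sulfate carbon 6 of N-acetylgalactosamine, and Chst11, Chst12 and Chst13 sulfate carbon 4 in chondroitin. Chst15, described above, also acts on carbon 6 but was not counted with Chst3 and Chst7, nor in the ratio below. Chst3 made up 91.6% to 97.5% of its pair, with 70.0 ± 15.8 CPM in Control and 104 ± 26.4 CPM in EAE, a log2 fold change of 0.57 ± 0.23 and an adjusted p of 0.198. Chst11 made up 75.6% to 91.4% of its group, with 72.2 ± 33.6 and 55.2 ± 5.49 CPM and an adjusted p of 0.569. Chst13 had 0 reads in all 6 libraries. The ratio of the summed per-kilobase level of the carbon 4 enzymes to that of the carbon 6 enzymes was 0.909, 1.22 and 2.11 in Control and 0.698, 0.975 and 0.572 in EAE. EAE 2 lay above Control 1, so the groups overlapped, and no test was made of this ratio. Chst14, the carbon 4 sulfotransferase of dermatan sulfate, had 6.89 ± 3.56 and 5.45 ± 0.961 CPM.

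**Figure D2:**
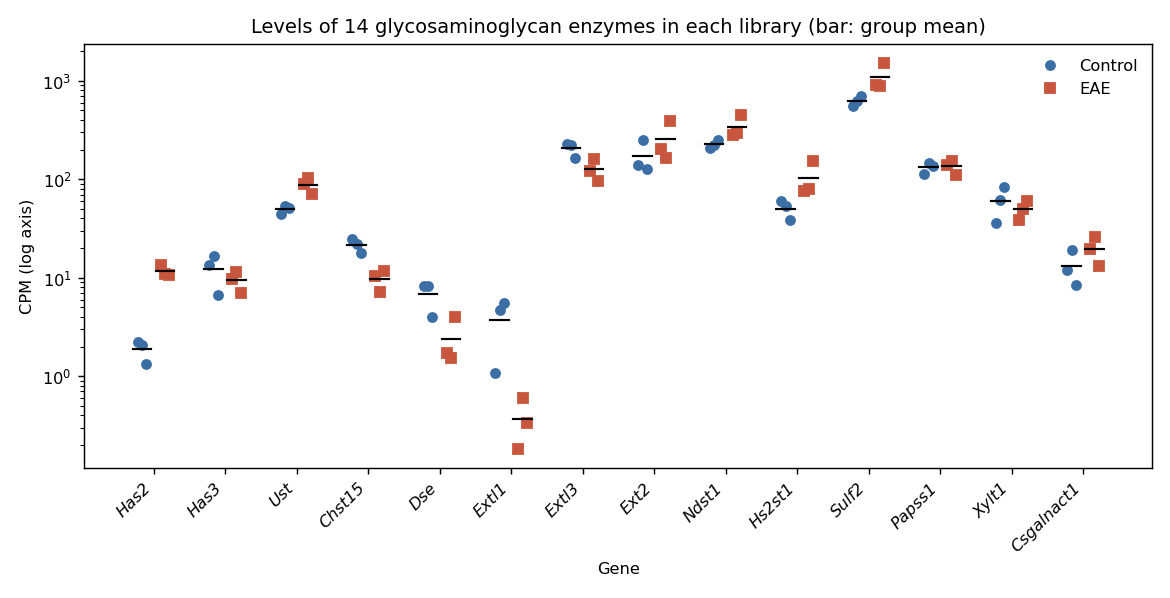
CPM of 14 enzymes in each of the 3 Control and 3 EAE libraries, 1 point a library, on a logarithmic axis, with group means as bars. All EAE points of Has2 and Ust lie above the Control points, and all EAE points of Chst15 and Extl1 lie below them.

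Heparan sulfate polymerisation had 1 lower member of 5 and none higher. Extl1 (ENSMUSG00000028838, chr4:134356372-134383850), a relative of the EXT polymerases with N-acetylglucosamine transferase activity, had 26, 117 and 119 reads in Control and 5, 16 and 10 in EAE. These are 1.07, 4.70 and 5.50 CPM and 0.184, 0.595 and 0.332 CPM. The EAE libraries lay below all Control libraries, and Control 1 was the nearest. The log2 fold change was -3.33 ± 0.80 with an adjusted p of 0.0405 (edgeR), on few reads. The call was kept without Control 1 (0.0375) and lost without Control 2 or 3 (0.131 and 0.110), without EAE 1, 2 or 3 (0.14, 0.0572 and 0.0859) and in limma-voom (0.161).

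Ext1 and Ext2 form the complex that extends the heparan chain. Ext2 was the highest of the polymerisation group per kilobase by the mean over all 6 libraries, though below Extl3 by the Control mean. It had 140, 249 and 126 CPM in Control and 204, 164 and 395 CPM in EAE. The groups overlapped, with EAE 3 the highest library, and the adjusted p was 0.449. Ext1 had 24.0 ± 1.13 and 25.2 ± 2.13 CPM, so that Ext2 made up 86.2% to 95.4% of the per-kilobase level of the pair. Extl3, which adds the first N-acetylglucosamine and so commits a chain to heparan sulfate, had 229, 222 and 166 CPM in Control and 121, 161 and 96.5 CPM in EAE. Its groups did not overlap, and Control 3 and EAE 2 lay close. The log2 fold change of Extl3 was -0.70 ± 0.21 with an adjusted p of 0.0956 (edgeR). With 1 library left out, that adjusted p ranged from 0.0386, without EAE 2, to 0.260. Extl2 had 54.6 ± 13.1 and 47.4 ± 5.85 CPM. The ratio of summed chondroitin polymerising to heparan polymerising enzymes per kilobase was 0.209, 0.148 and 0.232 in Control and 0.211, 0.214 and 0.190 in EAE, again overlapping and with no test.

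The enzymes that modify heparan sulfate gave no call in edgeR among 10 tested of 12, with a median log2 fold change of 0.20. At an unadjusted p under 0.05 there were 2, DESeq2 called 1 higher (Hs2st1) and limma-voom 0. Ndst1, the main N-deacetylase/N-sulfotransferase, which opens the chain to all later modification, had 209, 223 and 250 CPM in Control and 280, 294 and 445 CPM in EAE. The groups did not overlap and EAE 3 was the highest. Its log2 fold change was 0.58 ± 0.20 with an adjusted p of 0.133. Ndst1 made up 82.6% ± 2.08 of the per-kilobase level of its family in Control and 87.5% ± 0.728 in EAE, and Ndst2, Ndst3 and Ndst4 the rest. Hs2st1, which sulfates the uronic acid of heparan sulfate at carbon 2, had 60.1, 52.9 and 38.1 CPM in Control and 75.1, 79.9 and 154 CPM in EAE. These groups did not overlap, and EAE 3 was again the highest. The log2 fold change of Hs2st1 was 1.03 ± 0.30 with an adjusted p of 0.0779, and it was 0.63 without EAE 3.

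Hs3st1, which adds the rare 3-O sulfate, was the fourth highest of all the enzymes by the mean over all 6 libraries, with 95.6 ± 9.80 CPM in Control and 79.0 ± 37.7 CPM in EAE. Its lowest share of the per-kilobase level of its group was 95.2%, in Control 3. Hs3st3b1 had 3.70 ± 4.2 and 0.966 ± 1.06 CPM. Hs3st3a1, with 5, 1 and 29 reads in Control and 1, 1 and 9 in EAE, was too low to test. These paralogs share a near-identical catalytic domain, so that reads could be split between them. Hs6st1, the main 6-O sulfotransferase at 96.2% to 99.7% of its group, had 29.2 ± 3.81 and 42.9 ± 13.4 CPM and an adjusted p of 0.272. Hs6st2 had 0.565 ± 0.341 and 1.5 ± 0.481 CPM, apart in range at a low level, and the 13 reads of Hs6st3 were all in EAE 3. Glce, the epimerase of heparan sulfate, had 14.3 ± 6.67 and 9.53 ± 1.01 CPM.

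Sulf1 and Sulf2 are sulfatases that remove 6-O sulfate from finished heparan chains outside the cell. Sulf2 had 557, 616 and 699 CPM in Control and 897, 896 and 1507 CPM in EAE. All EAE libraries lay above all Control libraries. Its log2 fold change was 0.82 ± 0.23, with an adjusted p of 0.0719 in the edgeR fit and 0.0367 with no filter on low counts. With 1 library left out, the adjusted p of Sulf2 ranged from 0.0495, without EAE 2, to 0.234. Its log2 fold change then fell as low as 0.53. Sulf2 made up 97.0% to 99.3% of the per-kilobase level of the pair. Sulf1 had 12 ± 3.73 CPM in Control, and in EAE 5.37, 12 and 39.3 CPM, with EAE 3 far above the rest, and its log2 fold change of 0.66 turned to -0.46 without that library. Hpse, the heparanase that cuts the chain, had 0 reads in the Control libraries and 9, 1 and 11 in the EAE libraries, too few to test.

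Hyaluronan synthesis held the largest rise. Has2 (ENSMUSG00000022367, chr15:56665627-56694539), a synthase that makes long hyaluronan chains, had 54, 52 and 29 reads in Control and 362, 295 and 323 reads in EAE. These are 2.22, 2.09 and 1.34 CPM and 13.3, 11 and 10.7 CPM. The lowest EAE library lay far above the highest Control library. The means were 1.88 ± 0.474 and 11.7 ± 1.43 CPM, and the log2 fold change was 2.63 ± 0.34 with an adjusted p of 0.00332 (edgeR). With 1 library left out, in each of 6 such fits, the call held, with adjusted p from 0.00529 to 0.0211, and in all other settings run. Has2os, an antisense RNA that shares 4.30% of the exonic bases of Has2, had 8, 22 and 13 reads in Control and 86, 81 and 29 in EAE. These were fewer than the reads of Has2 in every library. In proportion they came nearest to Has2 in Control 2 (22 against 52 reads) and Control 3 (13 against 29). Whether antisense reads add to the Has2 counts was not tested.

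Has3 and Has1 are the other synthases. Has3 was the highest of the hyaluronan group per kilobase by the mean over all 6 libraries, though below Has2 in EAE, with 13.4, 16.6 and 6.66 CPM in Control and 9.79, 11.3 and 7.07 CPM in EAE. The EAE values lay inside the Control range, and the adjusted p was 0.648. Has1 had 0.344 ± 0.181 and 0.291 ± 0.141 CPM. Of the summed per-kilobase level of the 3 synthases, Has2 therefore made up 18.5% ± 3.68 in Control and 63.4% ± 5.63 in EAE, while Has3 made up 75.3% ± 2.62 and 33.5% ± 4.96. Neither pair of ranges overlapped, and these shares have no test of their own. Has3 shares 5.52% of its exonic bases with Chtf8 on the opposite strand. Cemip, which takes part in the breakdown of hyaluronan, had 0, 1 and 54 reads in Control and 10, 0 and 172 in EAE. Most of its reads thus lay in Control 3 and EAE 3. It did not pass the filter on low counts and was not tested.

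**Figure D3:**
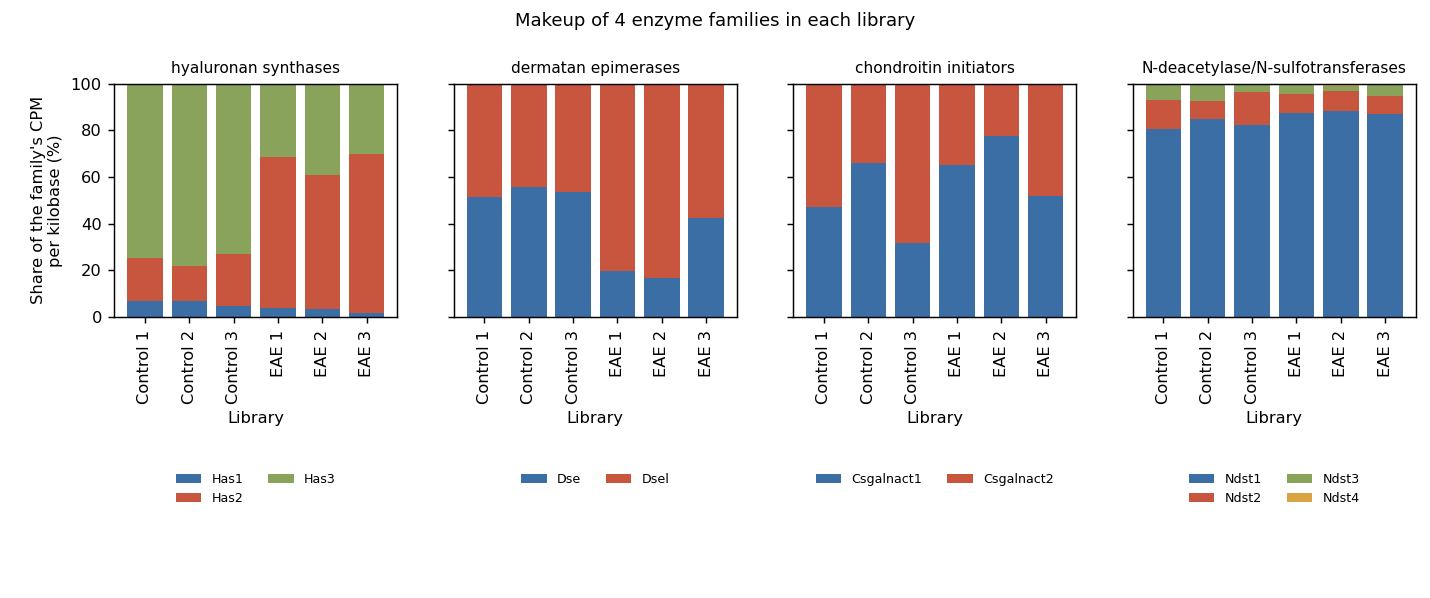
Share of each enzyme in the summed CPM per kilobase of its family, as stacked bars adding to 100% in each of the 6 libraries, for the hyaluronan synthases, the dermatan epimerases, the chondroitin initiators and the N-deacetylase/N-sulfotransferases. Has2 makes up 18.5% of the synthases in Control and 63.4% in EAE on average, and Dse 53.6% and 26.2% of the epimerases.

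The sulfate donor PAPS is made by Papss1 and Papss2, of which 0 were called by edgeR, DESeq2 or limma-voom and 0 had an unadjusted p under 0.05. Papss1 had 114, 146 and 136 CPM in Control and 141, 154 and 110 CPM in EAE. The groups overlapped throughout, with a log2 fold change of 0.03 ± 0.17 and an adjusted p of 0.950. Papss1 made up 99.1% to 99.6% of the per-kilobase level of the pair, and Papss2 had 1.07 ± 0.311 and 1.32 ± 0.416 CPM.

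**Figure D4:**
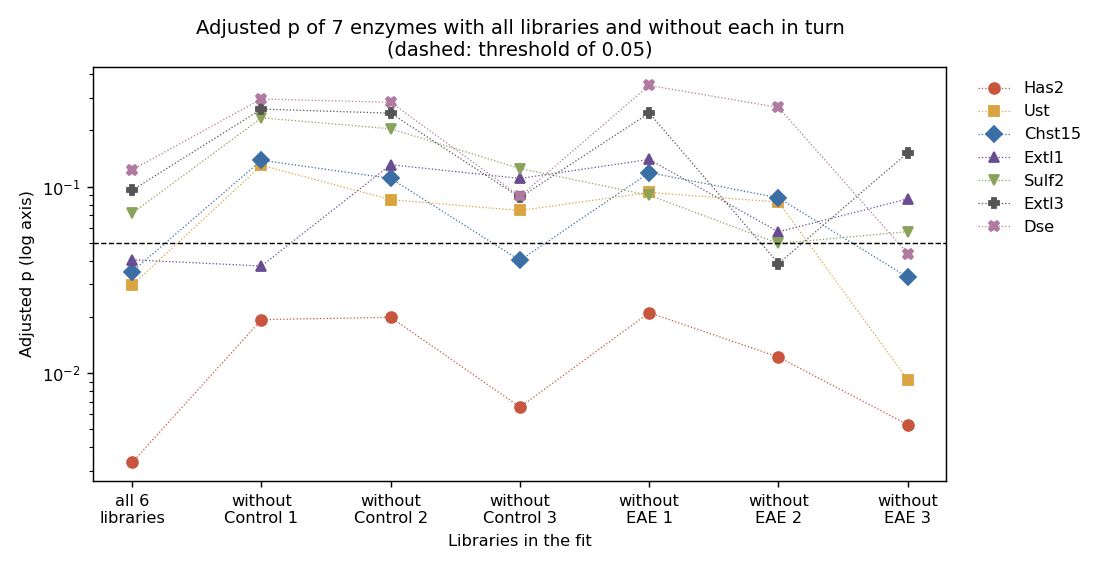
Adjusted p on a logarithmic axis for the called enzymes and for those whose call changed when 1 library was left out, with all 6 libraries and with each library left out in turn. The line marks the threshold of 0.05, and Has2 is the enzyme that stays below it throughout.

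Genes that supply or use these enzymes were described as 5 further lists. Over all tested genes, 2.82% were called higher and 4.33% lower, with a median log2 fold change of 0.004. Of 20 genes of sugar and sulfate supply, 2 rose and none fell. Ugdh, which makes UDP-glucuronic acid, a substrate of chondroitin, heparan and hyaluronan synthesis, had 10.9, 23.8 and 19.0 CPM in Control and 55.7, 28.5 and 73.7 CPM in EAE. No library of one group overlapped the other, and EAE 2 was the lowest of its group. The log2 fold change of Ugdh was 1.56 ± 0.38 with an adjusted p of 0.0445 (edgeR). The call was kept without EAE 2 (0.0176) and lost without Control 1, 2 or 3 or EAE 1 or 3, with adjusted p up to 0.146. It was also lost with library sizes alone (0.0574) and in limma-voom (0.0691). Bpnt2, the Golgi phosphatase that clears the by-product of sulfation, had 167 ± 8.98 and 275 ± 25.1 CPM, a log2 fold change of 0.71 ± 0.14 and an adjusted p of 0.0166. It lost its call without Control 1 or 2 or EAE 1, with adjusted p up to 0.0957.

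Of 26 proteoglycan core proteins, 25 were tested, 2 rose and 5 fell, with a median log2 fold change of -0.71. Tgfbr3, the co-receptor betaglycan, fell by 2.11 on the log2 scale, with an adjusted p of 0.000800, and kept its call whichever library was left out. Srgn, the core serglycin of secretory granules, fell by 1.95 (adjusted p 0.0459) and lost its call without Control 1 or 2 or EAE 1 or 2, with adjusted p up to 0.164 and a fold from 3.08 to 6.36. The Srgn call was also lost with library sizes alone (0.0687) and with no filter on low counts (0.0694). Hspg2, the basement membrane proteoglycan perlecan, fell by 1.56 (0.0176) and lost its call without Control 1 or 2 or EAE 1, with adjusted p up to 0.0822. Bcan, the brain chondroitin sulfate proteoglycan brevican, rose by 1.29 (0.0298) and lost its call without Control 1 or 2 or EAE 1 or 3, with adjusted p up to 0.0979. The other called cores were Vcan, higher by 1.26 on the log2 scale (0.0136), and Bgn and Sdc2, lower. Vcan, the chondroitin sulfate proteoglycan versican, lost its call without Control 1 (0.0515) or Control 2 (0.0657). Bgn and Sdc2 kept theirs whichever library was left out, with adjusted p up to 0.0202 and 0.0496.

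Lysosomal breakdown of glycosaminoglycans gave 1 lower and no higher gene of 17. Arsg, a lysosomal sulfatase of heparan sulfate, had 241 ± 10.9 and 157 ± 23.5 CPM, a log2 fold change of -0.62 ± 0.15 and an adjusted p of 0.0426, and it kept its call without EAE 2 (0.0330) and lost it without any other library, with adjusted p up to 0.172. Of 14 tested genes of hyaluronan binding, edgeR called 1 lower, Itih5, which encodes a heavy chain that attaches to hyaluronan. It had 362 ± 94.4 and 129 ± 48.4 CPM and an adjusted p of 0.0235, and lost its call without Control 1 or 2 or EAE 1, with adjusted p up to 0.103. In that list 6 genes had an unadjusted p under 0.05, and DESeq2 called 3 lower and limma-voom 2. Log2 fold changes there ran from -2.69 to 3.53, with 4 above 0 and 10 below. Of 5 tested genes among 13 other sulfotransferases and chain-modifying enzymes, none was called by edgeR or limma-voom in either direction, while 2 had an unadjusted p under 0.05 and DESeq2 called 2 higher.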

How the data were processed

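Bulk RNA-seq was made from sorted cells of 3 Control and 3 EAE spinal cord samples, with cDNA from the Ovation RNA-seq System V2 per the labels' protocols. The authors deposited raw read counts for 38293 Ensembl genes, with no normalization, and the other column used is the deposited gene length in base pairs, per the file headers. FastQC, STAR, featureCounts, edgeR 3.24.3 and mm10 are named in the submitters' processing notes; the strand setting, aligner options and annotation release were not given. Symbols and coordinates came from the GENCODE M21 annotation of GRCm38 and promoters from RefSeq GRCm38.p6.

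Genes were filtered with filterByExpr (minimum count 10, minimum total 15), scaled by TMM and tested with the robust quasi-likelihood F test of edgeR 4.0.16 in R 4.3.3, 2-sided, with Benjamini-Hochberg adjustment over 16966 genes and a threshold of 0.05. This called 1212 genes, with a biological coefficient of variation of 39.6%, and the fit was tested on simulated counts. The SE is the size of the log2 fold change divided by the square root of F. Floors cover counting error only. Alternatives used DESeq2 1.42.0, limma-voom (limma 3.58.1), other scalings, no filter, a replicate block and leaving out libraries. Groups came from the condition label. Named were called members, the highest per kilobase of each role, and members whose call changed when 1 library was left out, with up to 4 called genes of each further list, those with the largest log2 fold change in size; Vcan, Bgn and Sdc2 were added after their values were seen. The members and lists were chosen with earlier results of these data known. With 3 against 3, the smallest 2-sided p of an exact test is 0.1, and models across genes were used instead.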

Additional observations from a re-analysis of the deposited data

How the results depend on the processing

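Of 1212 genes called, 440 to 1150 were called when 1 library was left out, with the fewest without Control 1 (440), Control 2 (576) and EAE 1 (630), and DESeq2 called 2162. The members called higher, 2 in the edgeR fit, were 1 to 2 without 1 library, 4 in DESeq2 (with Hs2st1 and Sulf2) and 1 under a replicate block. The members called lower, 2, were 0 to 2 without 1 library, 4 in DESeq2 (with Dse and Extl3), 1 with library sizes alone, 1 in limma-voom and 0 under the replicate block. The labels do not say whether the replicate numbers pair the samples. Same-numbered deviations from the group means correlated at 0.016, -0.040 and -0.034, which cannot show whether same-numbered libraries were prepared together. The block called 818 genes. Of the called genes of the further lists, Ugdh, Bpnt2, Arsg, Srgn and Hspg2 lost their calls under the replicate block. Leaving out Control 3 and EAE 3 together, an alternative added after seeing the data, gave 1631 genes, 3 members higher and 3 lower, with Extl1, Ugdh and Arsg lost. The log2 fold change changed sign, the cause not tested, for Ndst2 with library sizes alone (0.041), limma-voom (0.035) and the replicate block (0.0092), for Ndst3 under that block (-0.0062), and without both libraries for B4galt7 (0.0069), B3galt6 (-0.55), Ext2 (-0.093), Ndst2 (0.030), Ndst3 (-0.70) and Sulf1 (-0.26). Without 1 library the sign changed for Xylt1 (-0.56 to 0.019), B4galt7 (-0.15 to 0.012), B3galt6 (-0.28 to 0.82), B3gat3 (-0.20 to 0.11), Chpf (-0.0046 to 0.58), Chpf2 (-0.24 to 0.048), Chst11 (-0.68 to 0.0058), Chst14 (-0.69 to 0.058), Dsel (-0.12 to 0.41), Ndst2 (-0.26 to 0.25), Ndst3 (-0.43 to 0.48), Ndst4 (-0.44 to 0.61), Sulf1 (-0.46 to 1.12), Has1 (-0.62 to 0.11), Papss1 (-0.075 to 0.17) and the log2 ratio of chondroitin to heparan polymerases (-0.11 to 0.22). No called member changed sign in any setting. Few reads, or reads in few libraries, limit the 5 untested members and the enzymes near 1 CPM.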
